A study of Homo sapiens with 18 samples.

Results

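The hypoxia-inducible factor (HIF) target genes described here are PDK1, P4HA1, P4HA2, NDRG1, BNIP3, KDM3A, EGLN3, ANKRD37, VEGFA and ADM. They are 10 of 22465 genes with a named probe set on the arrays, and form a list of established HIF targets. The list was chosen with earlier results of these data known, so counts over it are descriptions. The rule kept the brightest probe set of each symbol, and each of the 10 had a single one. RNA was measured on 18 arrays in 6 groups of 3. The cells were KMS12-BM, a multiple myeloma line, and JJN3, a plasma cell leukemia line. Each line was kept for 24 h with the solvent DMSO alone, with amiloride or with TG003. Amiloride is a potassium-sparing diuretic, and TG003 is an inhibitor of CLK kinases, which phosphorylate splicing factors. The dose of amiloride was 0.1 mM in KMS12-BM and 0.4 mM in JJN3, and that of TG003 was 0.4 mM in both. The amiloride dose thus differed with the line, as did the share of serum in the medium. Each line is a single established line. Nothing in the labels ties the 3 arrays of a group to separate cultures. The p-values therefore measure the spread between arrays, which may be technical.

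Cells sense oxygen through prolyl hydroxylases of the EGLN family, which mark the HIF alpha subunits so that the VHL ubiquitin ligase can bind and destroy them. When oxygen is low the alpha subunits persist, pair with ARNT and switch on genes for glycolysis, blood vessel growth, matrix assembly and mitochondrial turnover. Bone marrow, where myeloma cells grow, is known as a tissue of low oxygen, and HIF signalling is a studied feature of myeloma. The labels name no oxygen treatment.

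Among the 10 genes, PDK1 encodes a kinase that switches off pyruvate dehydrogenase and so keeps pyruvate out of the mitochondrial citric acid cycle. P4HA1 and P4HA2 encode catalytic subunits of collagen prolyl hydroxylase. KDM3A encodes a histone demethylase, and EGLN3 encodes an oxygen sensor that acts back on the HIF alpha subunits. BNIP3 encodes a mitochondrial outer membrane protein of mitophagy. VEGFA and ADM encode the secreted signals vascular endothelial growth factor A and adrenomedullin. NDRG1 encodes a stress-responsive cytoplasmic protein, and ANKRD37 encodes a small ankyrin repeat protein.

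Promoter sequence is shown for the members whose promoters hold ACGTG, a form of the core HIF binding motif. RefSeq promoters of build GRCh38.p14, each 300 bases long from 250 before to 50 after the start, were used for 8 of the 10 genes and gave 10 windows. No window was available for VEGFA, and NDRG1 was left out of the search. Both are named only and enter none of the member counts. Both strands were searched for ACGTG and for the other form of the core motif, GCGTG. The core letters were found in 4 of the 8 genes, and either form in 6 of the 8. Counted by window, 4 of 10 held ACGTG, 4 of 10 GCGTG and 7 of 10 either. The 2 windows of KDM3A overlap and share the same GCGTG match, which is thus counted in each. Of 35116 promoters of the same length, 21.4% held ACGTG, 36.5% held GCGTG and 48.4% held either. Capitals in the following sequences mark the matches to either form. A match on the other strand appears as its reverse complement, and matches on both strands can overlap. The windows are chr2:172555840-172556139 on the plus strand for PDK1, whose other start had no match, and chr10:73096817-73097116 on the minus strand for P4HA1. The window of BNIP3 is chr10:131981874-131982173 on the minus strand, and that of ANKRD37 is chr4:185396591-185396890 on the plus strand.
PDK1: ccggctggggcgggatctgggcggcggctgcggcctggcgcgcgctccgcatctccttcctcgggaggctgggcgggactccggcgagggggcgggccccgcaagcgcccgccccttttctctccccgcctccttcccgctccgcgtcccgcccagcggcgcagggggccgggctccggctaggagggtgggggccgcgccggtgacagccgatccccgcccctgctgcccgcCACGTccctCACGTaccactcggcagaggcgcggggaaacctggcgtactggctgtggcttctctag
P4HA1: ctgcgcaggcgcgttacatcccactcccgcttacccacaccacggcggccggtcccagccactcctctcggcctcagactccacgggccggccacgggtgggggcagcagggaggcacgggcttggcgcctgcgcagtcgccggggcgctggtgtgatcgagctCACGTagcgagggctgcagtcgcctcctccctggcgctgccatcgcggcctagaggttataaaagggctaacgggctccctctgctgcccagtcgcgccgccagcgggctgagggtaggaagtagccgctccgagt
BNIP3: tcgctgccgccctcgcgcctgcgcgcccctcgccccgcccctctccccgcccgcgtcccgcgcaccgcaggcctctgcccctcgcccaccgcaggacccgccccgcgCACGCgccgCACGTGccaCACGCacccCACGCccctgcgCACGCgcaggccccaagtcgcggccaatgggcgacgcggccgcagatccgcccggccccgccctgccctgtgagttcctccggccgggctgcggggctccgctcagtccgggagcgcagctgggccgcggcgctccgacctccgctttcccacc
ANKRD37: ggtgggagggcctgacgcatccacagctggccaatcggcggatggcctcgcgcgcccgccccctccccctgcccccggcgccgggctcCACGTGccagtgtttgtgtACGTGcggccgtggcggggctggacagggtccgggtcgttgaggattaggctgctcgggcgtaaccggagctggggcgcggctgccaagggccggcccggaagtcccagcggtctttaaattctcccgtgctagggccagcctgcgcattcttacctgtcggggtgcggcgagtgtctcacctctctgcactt
The PDK1 window holds ACGTG as 2 matches, and the P4HA1 window holds 1. The ANKRD37 window holds 3, of which 2 overlap. The BNIP3 window holds 2 overlapping ACGTG matches and 4 GCGTG matches. KDM3A and ADM hold GCGTG but not ACGTG, while P4HA2 and EGLN3 hold neither in these windows. A match is a description of letters and not of binding.

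Values are log2 expression values on the scale the authors deposited, and levels are not compared between genes, since each probe set has its own brightness. Within groups the arrays correlated at 0.9955 to 0.9984 across genes. For arrays, their number limits the precision. The background reference was 6.87, the 95th percentile of 92 control probe sets with ERCC names, and it may not measure background alone. Of 22465 genes, 8536 had a group mean above it. The third KMS12-BM amiloride array carries JJN3 in its cell line field, but its title and dose give KMS12-BM, and it was kept there. Its correlation across genes was 0.998 with the rest of that group and 0.932 with the amiloride arrays of JJN3. Of 10 plasma cell markers, 9 were above background in at least 1 group. SLAMF7 lay below it in every group, SDC1 and JCHAIN in KMS12-BM, CD38 in JJN3, and TNFRSF17 in JJN3 with TG003 (6.58, against 8.67 in DMSO). None of 19 measured markers of T and NK, myeloid, stromal, endothelial or erythroid cells was above it in any group, the highest group mean being 6.12. In such bulk RNA, fewer cells expressing a gene and less RNA per cell cannot be told apart.

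Of the 10 genes, PDK1, P4HA1, KDM3A and VEGFA had means above the reference in all 6 groups. NDRG1 was above it in the 3 JJN3 groups only. The other 5 had means below it in every group, namely P4HA2, BNIP3, EGLN3, ANKRD37 and ADM. Of these, ANKRD37 alone crossed the reference on any array, at 7.06 on the third JJN3 DMSO array. For the genes below it, differences are given as log2 differences without a fold, since such values bound the level only loosely.

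**Figure D1:**
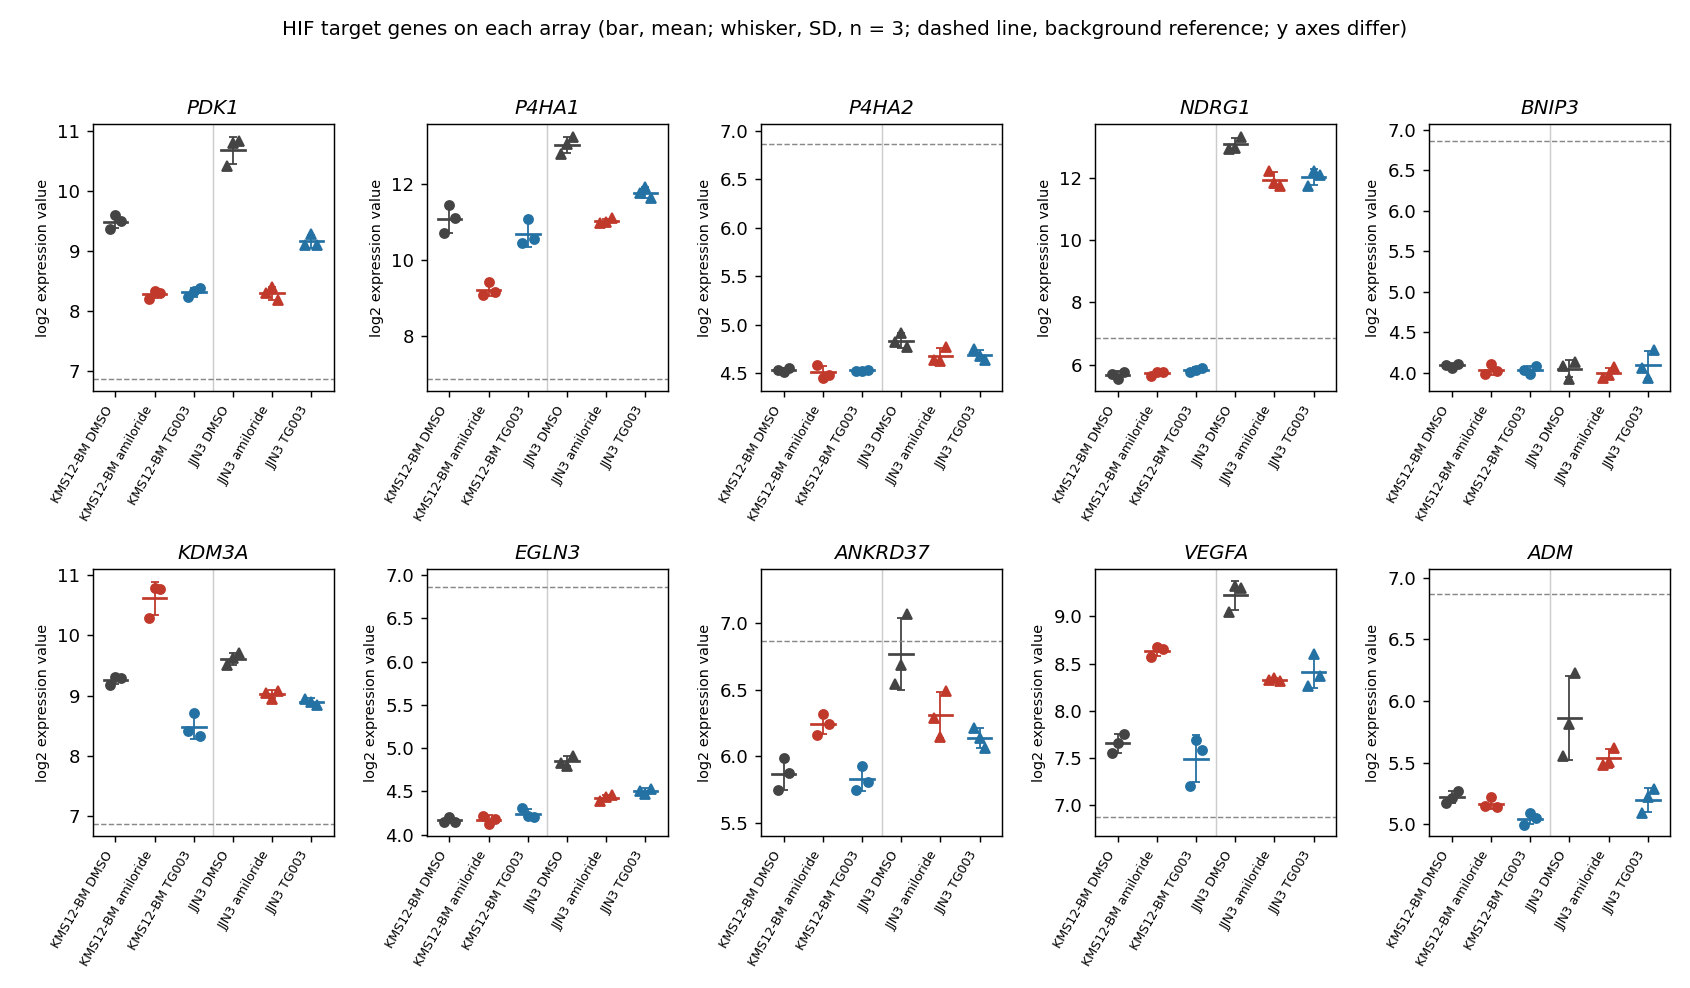
Log2 expression of each HIF target gene on each of the 18 arrays, by group of line and treatment, with points for arrays, bars for group means and whiskers for the SD (n = 3). NDRG1 lies near 12 to 13 in JJN3 and near 5.7 in KMS12-BM, while BNIP3 stays near 4 in every group.

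In solvent-treated cells, the HIF target genes ran higher in JJN3 than in KMS12-BM. Of the 10, 9 were higher in JJN3, none was lower, and BNIP3 did not pass the test. Across all genes, 18.9% were higher in JJN3 and 22.3% lower, and the median difference was −0.02 log2 against 0.79 for the 10 genes. The share of serum in the medium also differed, so line and medium cannot be told apart.

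NDRG1 read 12.93, 12.96 and 13.32 on the JJN3 DMSO arrays and 5.71, 5.53 and 5.75 on those of KMS12-BM. JJN3 lay far above the reference on every array and KMS12-BM below it on every array. Its level in JJN3 was thus at least 73.7-fold higher than the reference level that stands in for KMS12-BM, and the measured difference of 7.41 ± 0.14 log2 (SE, n = 3 per group) had an adjusted p of 3.7e-16.

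P4HA1 read 12.80, 13.06 and 13.24 in JJN3 against 10.71, 11.45 and 11.11 in KMS12-BM. The groups did not overlap, and JJN3 was 3.86-fold higher (1.95 ± 0.18 log2, adjusted p = 1.2e-07). VEGFA read 9.05, 9.32 and 9.30 in JJN3 against 7.55, 7.66 and 7.75 in KMS12-BM. It was 2.97-fold higher in JJN3, again without overlap (1.57 ± 0.11 log2, adjusted p = 6.1e-09). PDK1 read 10.41, 10.79 and 10.82 in JJN3 against 9.37, 9.59 and 9.49 in KMS12-BM. Its level was 2.28-fold higher in JJN3 (1.19 ± 0.10 log2, adjusted p = 4.2e-08). The difference for KDM3A was the smallest of those above background, at 0.35 ± 0.12 log2 (adjusted p = 0.023). Its call was lost without the first KMS12-BM DMSO array (adjusted p = 0.086), without the second JJN3 DMSO array (adjusted p = 0.058) or without the third (adjusted p = 0.088).

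The remaining 4 that passed lay below the reference in both lines. The log2 difference was 0.89 for ANKRD37, 0.68 for EGLN3, 0.65 for ADM and 0.30 for P4HA2, each higher in JJN3.

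Amiloride at 0.4 mM lowered 7 of the 10 genes in JJN3 and raised none, where 6.12% of all genes fell and 8.65% rose. The median change of the 10 was −0.52 log2 against −0.02 over all genes. The genes that fell were PDK1, P4HA1, NDRG1, VEGFA, KDM3A, ANKRD37 and EGLN3. P4HA2, BNIP3 and ADM did not pass.

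PDK1 fell from 10.41, 10.79 and 10.82 on the DMSO arrays to 8.30, 8.40 and 8.18 under amiloride. No array of one group came within 2 log2 units of the other, and the mean fell to 19.2% of that in DMSO (−2.38 ± 0.10 log2, adjusted p = 3.4e-09). Ranked by p, it stood at 1 among the 22465 genes, and its fall ranked 6 by size.

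P4HA1 read 10.98, 11.01 and 11.10 under amiloride, every array below the lowest DMSO array. It fell to 24.9% of the DMSO level (−2.0 ± 0.18 log2, adjusted p = 4.2e-06), and its fall ranked 16 by size among all genes. P4HA2, the other catalytic subunit, read 4.64 to 4.77 under amiloride and 4.77 to 4.92 in DMSO, all below the reference (−0.16 ± 0.06 log2, adjusted p = 0.083). It passed without the third JJN3 amiloride array (adjusted p = 0.035). P4HB, the partner subunit of the enzyme, fell by 0.55 ± 0.16 log2 (adjusted p = 0.027).

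NDRG1 read 12.20, 11.84 and 11.73 under amiloride, against 12.93 or more in DMSO. It fell to 45.1% of the DMSO level (−1.15 ± 0.14 log2, adjusted p = 4.1e-05), so that it remained well above background. VEGFA read 8.33, 8.34 and 8.31, against 9.05 or more in DMSO. It fell to 53.8% (−0.89 ± 0.11 log2, adjusted p = 6.5e-05). KDM3A read 9.04, 8.94 and 9.07 under amiloride and 9.50, 9.62 and 9.70 in DMSO. It fell to 66.4% (−0.59 ± 0.12 log2, adjusted p = 0.0025).

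Below the reference, EGLN3 was lower by −0.42 ± 0.05 log2 (adjusted p = 4.6e-05) and ANKRD37 by −0.45 ± 0.12 (adjusted p = 0.013). The ANKRD37 call was lost when only the groups compared were fitted (adjusted p = 0.10), without the third JJN3 DMSO array (adjusted p = 0.070) or without the second amiloride array (adjusted p = 0.071). ADM differed by −0.33 ± 0.12 log2 (adjusted p = 0.074), and passed without the first JJN3 DMSO array (adjusted p = 0.0044). BNIP3 read 3.93 to 4.07 under amiloride and 3.93 to 4.13 in DMSO, with overlapping groups. Its relative BNIP3L, also a mitophagy receptor and itself a HIF target, had a probe set well above background and fell from 12.71 to 11.43 (−1.27 ± 0.14 log2, adjusted p = 2.7e-05). BNIP3L also fell with TG003 in JJN3 (−0.66 ± 0.14 log2, adjusted p = 0.0075). In KMS12-BM it passed neither with amiloride (−0.22 ± 0.14, adjusted p = 0.33) nor with TG003 (−0.18 ± 0.14, adjusted p = 0.56).

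TG003 at 0.4 mM lowered 8 of the 10 genes in JJN3 and raised none, where 5.64% of all genes fell and 3.74% rose. The median change was −0.69 log2 for the 10 genes against 0.02 over all genes. P4HA2 and BNIP3 were the 2 that did not pass. The amiloride and TG003 comparisons of a line share its DMSO arrays, so they are not independent of each other. The summed log2 level of the 10 plasma cell markers was also lower with TG003, at 92.9 to 95.9 per array in JJN3 against 100.6 to 101.3 in DMSO, and at 83.7 to 84.7 in KMS12-BM against 91.7 to 92.6. With amiloride it was 95.8 to 99.6 in JJN3 and 91.1 to 91.8 in KMS12-BM. The part of these shifts in the results was not tested.

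PDK1 read 9.10, 9.29 and 9.09 under TG003, below every DMSO array and above every amiloride array of JJN3. It fell to 35.05% of the DMSO level (−1.51 ± 0.10 log2, adjusted p = 5.5e-07) and ranked 5 by p among all genes. P4HA1 read 11.77, 11.93 and 11.64 under TG003, again between the other groups of the line. It fell to 41.8% (−1.26 ± 0.18 log2, adjusted p = 2.9e-04). Of the relatives, P4HB did not pass (−0.15 ± 0.16 log2, adjusted p = 0.71), while PDK3 fell (−0.59 ± 0.12 log2, adjusted p = 0.0045).

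NDRG1 read 11.75, 12.23 and 12.08, and fell to 48.2% (−1.05 ± 0.14 log2, adjusted p = 1.3e-04). VEGFA read 8.26, 8.60 and 8.37, and fell to 57.0% (−0.81 ± 0.11 log2, adjusted p = 2.3e-04). KDM3A read 8.95, 8.90 and 8.84, and fell to 61.0% (−0.71 ± 0.12 log2, adjusted p = 9.5e-04). In each of these 3 genes every TG003 array lay below every DMSO array.

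Below the reference, ADM was lower by −0.66 ± 0.12 log2 (adjusted p = 0.0015). Its TG003 arrays read 5.10, 5.22 and 5.29, and those of DMSO 5.55, 5.81 and 6.23. ANKRD37 was lower by −0.63 ± 0.12 log2 (adjusted p = 0.0024) and EGLN3 by −0.34 ± 0.05 (adjusted p = 4.0e-04). P4HA2 differed by −0.15 ± 0.06 log2 (adjusted p = 0.14), and passed after a further quantile normalization (adjusted p = 0.032).

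With both drugs at 0.4 mM, JJN3 allowed a comparison at equal concentration. Amiloride gave lower levels than TG003 for 2 of the 10 genes and higher levels for none, where 6.41% of all genes were lower and 10.5% higher. PDK1 was lower by −0.87 ± 0.10 log2 (adjusted p = 2.2e-05) and P4HA1 by −0.75 ± 0.18 (adjusted p = 0.0079), both without overlap. NDRG1 differed by −0.10 log2 with a 95% interval of −0.39 to 0.19, VEGFA by −0.08 with −0.32 to 0.16, and KDM3A by 0.12 with −0.13 to 0.37. ADM differed by 0.34 ± 0.12 log2 (adjusted p = 0.061), with every amiloride array above every TG003 array. It passed without the first JJN3 DMSO array (adjusted p = 0.015), without the third (adjusted p = 0.0045) and under 4 other alternatives given in the closing section.

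**Figure D2:**
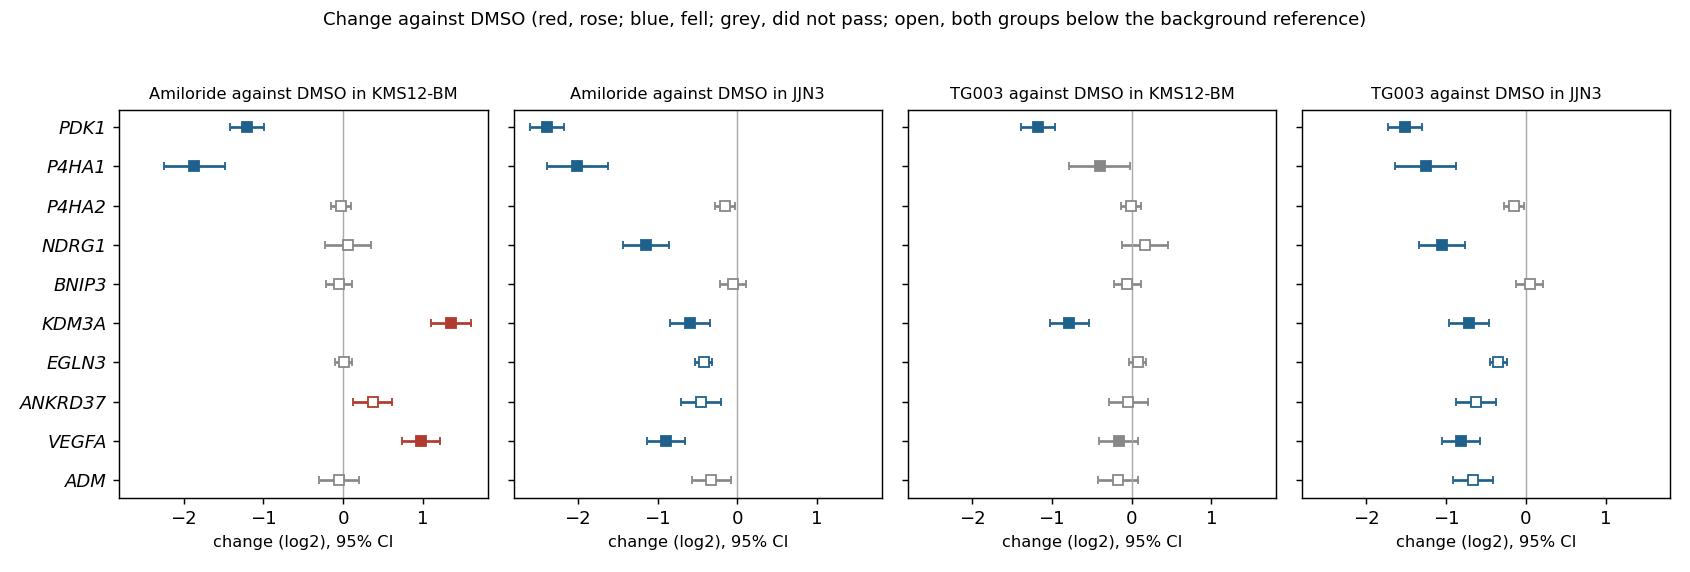
Change of each HIF target gene against DMSO on the log2 scale (horizontal axis), with bars for 95% intervals, for each drug and line. Open squares mark genes below the background reference in both groups. In JJN3 the values lie at or below 0 apart from BNIP3 under TG003 at 0.05, whereas in KMS12-BM with amiloride KDM3A and VEGFA lie on the positive side and P4HA1 and PDK1 on the negative side.

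In KMS12-BM, amiloride at 0.1 mM moved the genes in both directions: 3 rose and 2 fell, where 17.0% of all genes rose and 13.6% fell. The median change was −0.01 log2 for the 10 genes and −0.02 over all genes.

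KDM3A rose from 9.17, 9.31 and 9.29 in DMSO to 10.29, 10.78 and 10.76. The amiloride arrays lay above all other arrays of the gene in either line, and the rise was 2.56-fold (1.35 ± 0.12 log2, adjusted p = 1.9e-07). Its relative KDM3B, a histone demethylase of the same family, fell by 0.55 ± 0.10 log2 (adjusted p = 2.2e-04), while JMJD1C, another relative, named after its values were seen, rose by 0.54 ± 0.08 (adjusted p = 2.6e-05). VEGFA rose from 7.55, 7.66 and 7.75 to 8.57, 8.67 and 8.66, a 1.97-fold rise without overlap (0.98 ± 0.11 log2, adjusted p = 3.7e-06). ANKRD37 was higher by 0.37 ± 0.12 log2 (adjusted p = 0.022), with both means below the reference.

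The ANKRD37 call was lost after a further quantile normalization (adjusted p = 0.069), and without any 1 of 4 arrays. Those were the first and the third KMS12-BM DMSO array (adjusted p = 0.099 and 0.052) and the second and the third amiloride array (adjusted p = 0.082 and 0.056).

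P4HA1 fell from 10.71, 11.45 and 11.11 to 9.09, 9.42 and 9.16, or to 27.4% of the DMSO level (−1.87 ± 0.18 log2, adjusted p = 5.4e-07). P4HB changed by −0.53 ± 0.16 log2 (adjusted p = 0.017). PDK1 fell from 9.37, 9.59 and 9.49 to 8.20, 8.34 and 8.31, or to 43.5% (−1.20 ± 0.10 log2, adjusted p = 1.2e-07). Neither gene's groups overlapped. PDK3, another kinase of pyruvate dehydrogenase, also fell (−0.98 ± 0.12 log2, adjusted p = 6.9e-06). The related kinases PDK2 and PDK4, named after their values were seen, did not pass (−0.14 and −0.04 log2, adjusted p = 0.33 and 0.77). With amiloride in JJN3, PDK3 fell (−0.86 ± 0.12 log2), PDK2 did not pass (−0.09) and PDK4 rose (0.36 ± 0.07). PDK4 lay below the reference in these groups.

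The other 5 genes, NDRG1, BNIP3, EGLN3, ADM and P4HA2, lay below the reference in both groups, and their changes ran from −0.05 to 0.06 log2 with overlapping arrays.

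TG003 at 0.4 mM lowered 2 of the 10 genes in KMS12-BM and raised none, where 6.52% of all genes fell and 8.3% rose. The median change was −0.11 log2 for the 10 genes and −0.01 over all genes. PDK1 read 8.23, 8.33 and 8.38 under TG003, against 9.37 or more in DMSO, and fell to 44.4% (−1.17 ± 0.10 log2, adjusted p = 2.2e-06). Its relative PDK3 did not pass there (0.01 ± 0.12 log2, adjusted p = 0.98). KDM3A read 8.41, 8.70 and 8.32, and fell to 58.3% (−0.78 ± 0.12 log2, adjusted p = 2.9e-04).

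P4HA1 read 10.45, 11.07 and 10.55 under TG003 and overlapped its DMSO arrays (−0.40 ± 0.18 log2, adjusted p = 0.18). It passed without the first KMS12-BM DMSO array (adjusted p = 0.041) or the second TG003 array (adjusted p = 0.039). VEGFA read 7.20, 7.68 and 7.58, also overlapping DMSO (−0.16 ± 0.11 log2, adjusted p = 0.46). The other 6 genes lay below the reference in both groups and had changes of −0.17 to 0.16 log2.

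In KMS12-BM the drugs were given at different doses, 0.1 mM amiloride and 0.4 mM TG003. Of the 10 genes, 3 were higher with amiloride and 1 lower, where 15.8% of all genes were higher and 14.0% lower. KDM3A was higher by 2.13 ± 0.12 log2 (adjusted p = 1.5e-09), VEGFA by 1.14 ± 0.11 (adjusted p = 7.4e-07) and ANKRD37 by 0.41 ± 0.12 (adjusted p = 0.011). P4HA1 was lower by −1.47 ± 0.18 log2 (adjusted p = 6.9e-06). PDK1 was the gene whose values overlapped between these groups while both lay below DMSO, with a difference of −0.03 log2 and a 95% interval of −0.24 to 0.18.

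The change with amiloride differed between the lines for 6 of the 10 genes, each lower in JJN3, where 9.78% of all genes were lower and 8.68% higher. KDM3A and VEGFA moved in opposite directions. The JJN3 change minus that of KMS12-BM was −1.94 ± 0.17 log2 for KDM3A (adjusted p = 1.2e-06) and −1.87 ± 0.16 for VEGFA (adjusted p = 1.2e-06). It was −1.21 ± 0.19 for NDRG1, −1.18 ± 0.14 for PDK1, −0.82 ± 0.16 for ANKRD37 and −0.43 ± 0.07 for EGLN3. For NDRG1, EGLN3 and ANKRD37 the KMS12-BM values lay below the reference, where a change is only loosely measured. EGLN3 and ANKRD37 had means below it in JJN3 too. For P4HA1, which fell in both lines, the difference was −0.14 log2 with a 95% interval of −0.68 to 0.40. The dose was 0.1 mM in one line and 0.4 mM in the other, and the share of serum differed too. Line, dose and medium cannot be told apart in this comparison.

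TG003 was given at 0.4 mM to both lines, but the share of serum differed, so line and medium cannot be told apart. The effect of TG003 differed for 3 of the 10 genes, each lower in JJN3, where 2.64% of all genes were lower and 1.92% higher. The difference was −1.22 ± 0.19 log2 for NDRG1 (adjusted p = 0.0021), −0.42 ± 0.07 for EGLN3 (adjusted p = 0.0035) and −0.65 ± 0.16 for VEGFA (adjusted p = 0.029). Since NDRG1 was below the reference in KMS12-BM and EGLN3 in both lines, VEGFA was the only one of these 3 measured above it in both lines. Its call was lost when arrays were centred on their median (adjusted p = 0.051), when only the groups compared were fitted (adjusted p = 0.074), and without any 1 of 8 arrays (adjusted p 0.051 to 0.081). Those were the first and second KMS12-BM DMSO arrays, the second and the third JJN3 DMSO array, the second and the third KMS12-BM TG003 array, and the first and the third JJN3 TG003 array.

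With the replicate number as a block, 5 of the 10 genes differed in place of 3, with P4HA1 (adjusted p = 0.017) and ANKRD37 (adjusted p = 0.044) added. Without the first JJN3 DMSO array the number of genes that differed rose to 6, with PDK1 (adjusted p = 0.037), ANKRD37 (adjusted p = 0.024) and ADM (adjusted p = 0.014) added. ANKRD37 (−0.58 log2, adjusted p = 0.056) also passed without the third JJN3 amiloride array (adjusted p = 0.040). P4HA1 differed by −0.86 ± 0.25 log2 (adjusted p = 0.069), and passed without the second KMS12-BM DMSO array (adjusted p = 0.025) or the first KMS12-BM TG003 array (adjusted p = 0.049). Over all genes, the number that differed was 1026, and it was 679 without the first KMS12-BM DMSO array and 677 without the second JJN3 DMSO array. Wherever limma called 0 of the 10 genes in a direction, 0 also had an unadjusted p under 0.05 in it, except that amiloride against TG003 in JJN3 had 1 higher, ADM. For KDM3A the TG003 changes of the lines differed by 0.06 log2, with a 95% interval of −0.29 to 0.42.

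**Figure D3:**
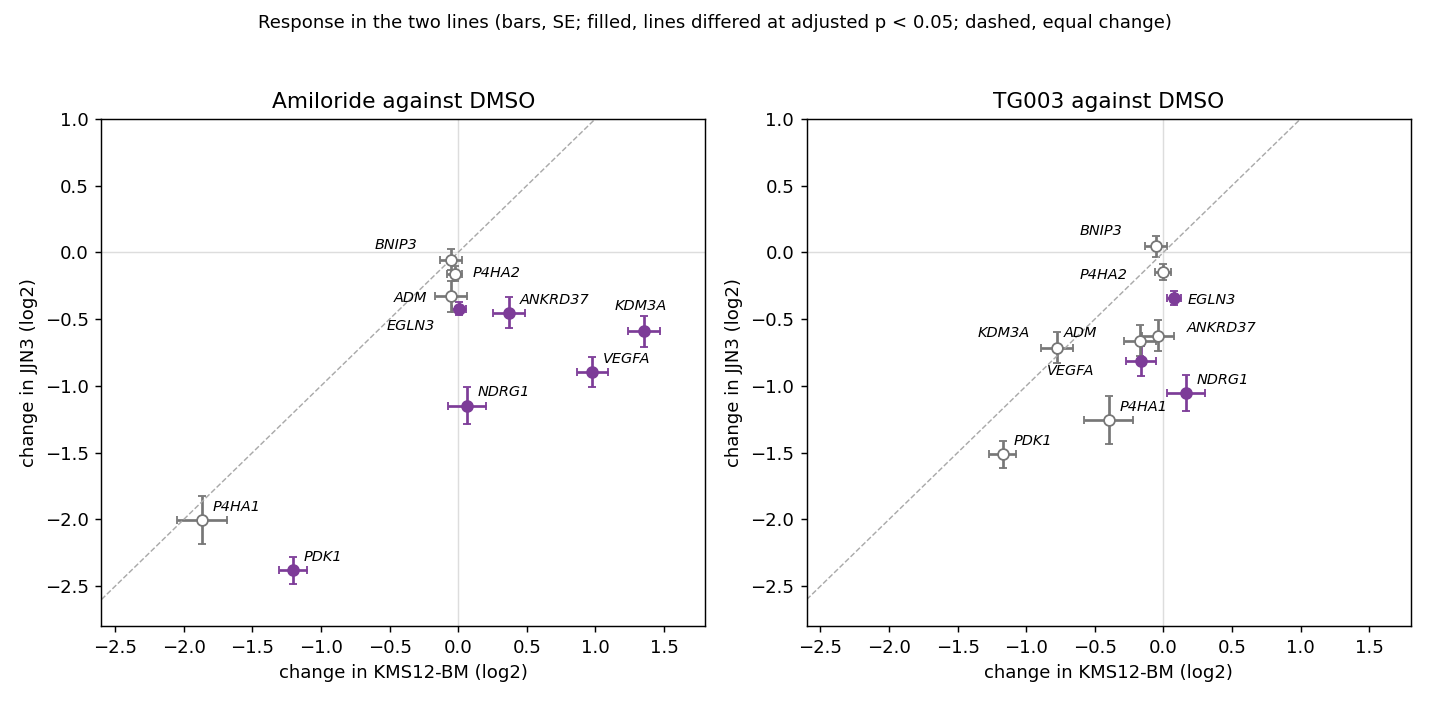
Change of each HIF target gene in KMS12-BM (horizontal axis) against that in JJN3 (vertical axis), in log2 units against DMSO with SE bars, for amiloride on the left and TG003 on the right. Filled points are genes whose changes differed between the lines, 6 with amiloride and 3 with TG003, and all of these lie below the dashed line of equal change.

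Ordered over the 6 groups, PDK1 was highest in JJN3 DMSO at 10.67, followed by KMS12-BM DMSO at 9.48 and JJN3 TG003 at 9.16, with no overlap between neighbours. The last 3 groups, KMS12-BM TG003 at 8.31, JJN3 amiloride at 8.29 and KMS12-BM amiloride at 8.28, overlapped one another. The lines thus differed in PDK1 in DMSO but not beyond their spread under amiloride.

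P4HA1 ran from 13.04 in JJN3 DMSO through 11.78 in JJN3 TG003 to a cluster of 3 overlapping groups, KMS12-BM DMSO at 11.09, JJN3 amiloride at 11.03 and KMS12-BM TG003 at 10.69. KMS12-BM amiloride stood lowest at 9.22, apart from all others. For VEGFA, JJN3 DMSO was highest at 9.22. KMS12-BM amiloride at 8.63 came next and overlapped JJN3 TG003 at 8.41, which overlapped JJN3 amiloride at 8.33. KMS12-BM DMSO at 7.65 and KMS12-BM TG003 at 7.49 were lowest and overlapped.

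KDM3A had another order. KMS12-BM amiloride was highest at 10.61, followed by JJN3 DMSO at 9.61 and KMS12-BM DMSO at 9.26, without overlap. JJN3 amiloride at 9.02 and JJN3 TG003 at 8.89 overlapped, and KMS12-BM TG003 was lowest at 8.48. In NDRG1 the JJN3 drug groups overlapped at 12.02 with TG003 and 11.92 with amiloride.

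The genes of the HIF machinery were described from a list of 16 subunits, oxygen sensors and cofactors, of which 14 were measured. With amiloride, 7 rose and none fell in KMS12-BM, and 4 rose and none fell in JJN3. With TG003, none passed in KMS12-BM, and 1 fell in JJN3. Over all genes, 17.0% rose and 13.6% fell with amiloride in KMS12-BM, 8.65% rose and 6.12% fell with it in JJN3, 8.3% rose and 6.52% fell with TG003 in KMS12-BM, and 3.74% rose and 5.64% fell with it in JJN3. The single fall of 14 with TG003 in JJN3 is near the share over all genes. The list medians were 0.34, 0.05, 0.06 and 0.04 log2 in that order, against −0.02, −0.02, −0.01 and 0.02 over all genes. At an unadjusted p under 0.05, limma gave none lower with amiloride in either line, 2 higher and 2 lower with TG003 in KMS12-BM, and 3 higher with TG003 in JJN3. The counts with TG003 were sensitive to the setting. In KMS12-BM 1 rose under the replicate block, on genes above background only, or without the first or the third KMS12-BM amiloride array, the third JJN3 amiloride array or the second KMS12-BM TG003 array. There 2 fell after a further quantile normalization, and 1 without the second KMS12-BM TG003 array or the third JJN3 TG003 array. In JJN3 1 rose under the replicate block, with only the groups compared, or without the second KMS12-BM TG003 array.

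HIF1A, which encodes the main HIF alpha subunit, read 10.52, 10.68 and 10.49 in KMS12-BM DMSO and 11.97, 12.16 and 12.32 with amiloride. It rose without overlap (1.58 ± 0.09 log2, adjusted p = 3.6e-09). In JJN3 it read 12.01, 11.96 and 12.19 in DMSO and 12.77, 12.76 and 12.81 with amiloride, a rise of 0.73 ± 0.09 log2 (adjusted p = 8.3e-05). With TG003 the HIF1A change was −0.23 log2 in KMS12-BM (adjusted p = 0.13) and −0.0009 in JJN3 (adjusted p = 0.998). HIF1A RNA was thus higher with amiloride in JJN3, where 7 of the target genes were lower. HIF1A was also higher in JJN3 than in KMS12-BM in DMSO, by 1.49 ± 0.09 log2 (adjusted p = 1.3e-09). HIF proteins were not measured.

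EPAS1, which encodes another HIF alpha subunit, had group means of 3.78 to 3.85, all below the reference. ARNT, the shared partner subunit, ran from 11.47 to 12.21 over the groups and passed in no drug comparison. EGLN1, the main oxygen sensor, rose with amiloride in KMS12-BM by 1.03 ± 0.12 log2 (adjusted p = 3.5e-06). With amiloride in JJN3 its change was −0.06 (adjusted p = 0.87), and with TG003 it was −0.32 in KMS12-BM (adjusted p = 0.089). It fell with TG003 in JJN3 (−0.70 ± 0.12, adjusted p = 0.0013). VHL rose with amiloride in KMS12-BM by 0.38 ± 0.08 log2 (adjusted p = 8.3e-04), and its other drug changes lay between −0.05 and 0.06. The coactivator CREBBP rose with amiloride by 2.08 ± 0.13 log2 in KMS12-BM (adjusted p = 6.4e-09) and by 0.85 ± 0.13 in JJN3 (adjusted p = 3.3e-04). CUL2, a scaffold of the VHL ligase, rose with it by 0.73 ± 0.11 in JJN3 (adjusted p = 3.5e-04) and by 0.57 ± 0.11 in KMS12-BM (adjusted p = 7.2e-04).

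**Figure D4:**
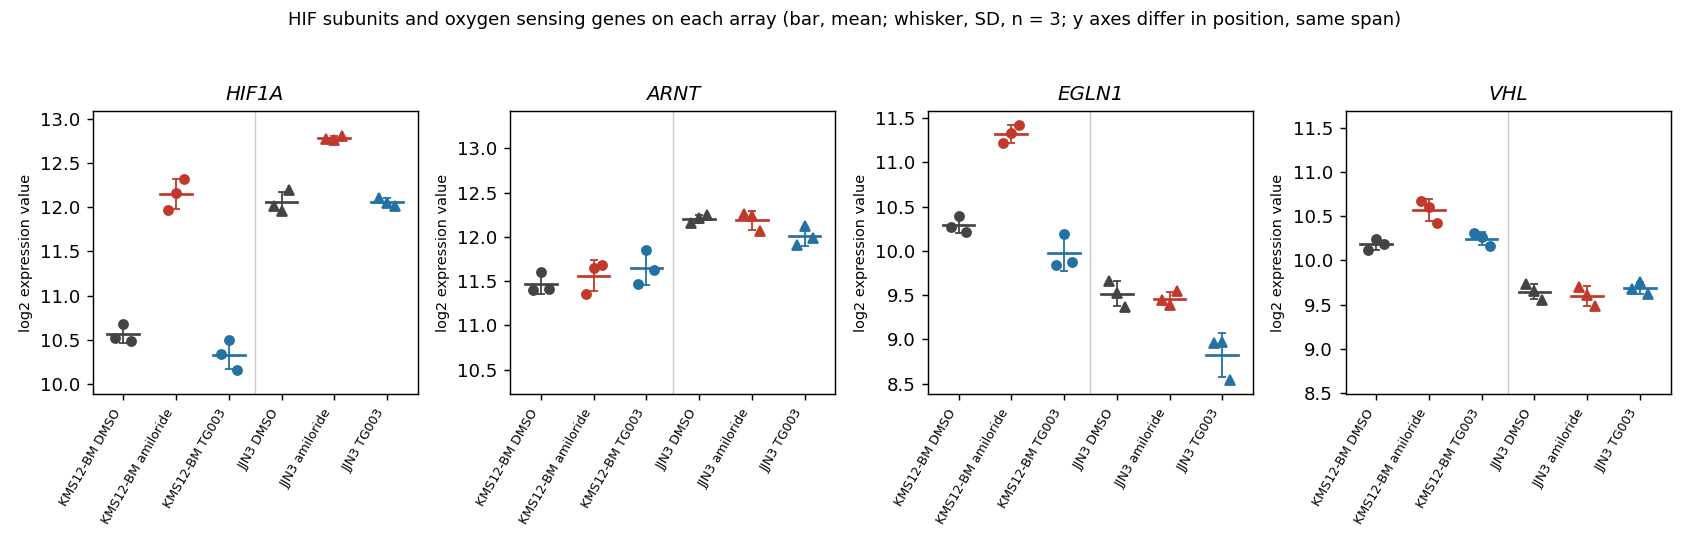
Log2 expression of HIF1A, ARNT, EGLN1 and VHL on each of the 18 arrays by group, with bars at group means, whiskers for the SD (n = 3) and panels of equal vertical span. HIF1A sits higher with amiloride than with DMSO in both lines, and EGLN1 sits higher with amiloride in KMS12-BM (11.32 against 10.29 in DMSO).

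Other HIF targets were taken from a list of 47 genes, of which 45 were measured. In JJN3, 27 fell and 1 rose with amiloride, and 25 fell and none rose with TG003. In KMS12-BM, 11 fell and 7 rose with amiloride, and 9 fell and none rose with TG003. The shares of all genes that fell were 6.12% and 5.64% in JJN3 and 13.6% and 6.52% in KMS12-BM. In KMS12-BM 17.0% of all genes rose with amiloride, and the 7 rises of 45 are near that share. The list medians in JJN3 were −0.36 and −0.35 log2 against −0.02 and 0.02 over all genes, and those in KMS12-BM −0.07 and −0.06 against −0.02 and −0.01. The 9 that fell in KMS12-BM with TG003 became 5 when only the groups compared were fitted and 5 without the third KMS12-BM TG003 array. At an unadjusted p under 0.05, limma gave 2 higher with TG003 in KMS12-BM and none in JJN3.

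In JJN3, GBE1, the glycogen branching enzyme, changed by −1.66 ± 0.17 log2 with amiloride and by −1.87 ± 0.17 with TG003. DDIT4, an inhibitor of mTOR signalling, changed by −2.13 ± 0.35 and by −1.69 ± 0.35. PFKFB4, which makes an activator of glycolysis, fell by 1.93 ± 0.13 with amiloride. In KMS12-BM, amiloride raised STC2, a secreted glycoprotein, by 2.02 ± 0.11 log2 and changed PLOD1, a collagen lysyl hydroxylase, by −2.25 ± 0.12. EFNA3, a membrane ligand of Eph receptors, changed in KMS12-BM by −1.39 ± 0.16 with amiloride and by −0.98 ± 0.16 with TG003. The glucose transporter SLC2A1 changed there by −0.82 ± 0.10 with TG003, and the chemokine receptor CXCR4 by −0.79 ± 0.13. Each of these changes passed the test.

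Of 17 genes for glycolytic enzymes and lactate export, 16 were measured and none rose in any of the 4 drug comparisons by limma, at an unadjusted p under 0.05 included. The gene not measured was the lactate exporter SLC16A3, so these counts cover enzymes only. With amiloride 12 fell in each line, and with TG003 11 fell in KMS12-BM and 9 in JJN3. Over all genes 13.6% fell with amiloride in KMS12-BM, 6.12% with it in JJN3, 6.52% with TG003 in KMS12-BM and 5.64% with it in JJN3. The list medians ran from −0.65 to −0.50 log2, and those of all genes from −0.02 to 0.02. The aldolase ALDOC changed by −3.10 ± 0.14 log2 in KMS12-BM and by −2.63 ± 0.14 in JJN3 with amiloride, and by −1.56 ± 0.14 with TG003 in JJN3. HK2, a hexokinase, fell by 1.32 ± 0.12 with TG003 in KMS12-BM. PGK1, phosphoglycerate kinase, changed with TG003 by −0.78 ± 0.13 in KMS12-BM and by −0.88 ± 0.13 in JJN3.

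**Figure D5:**
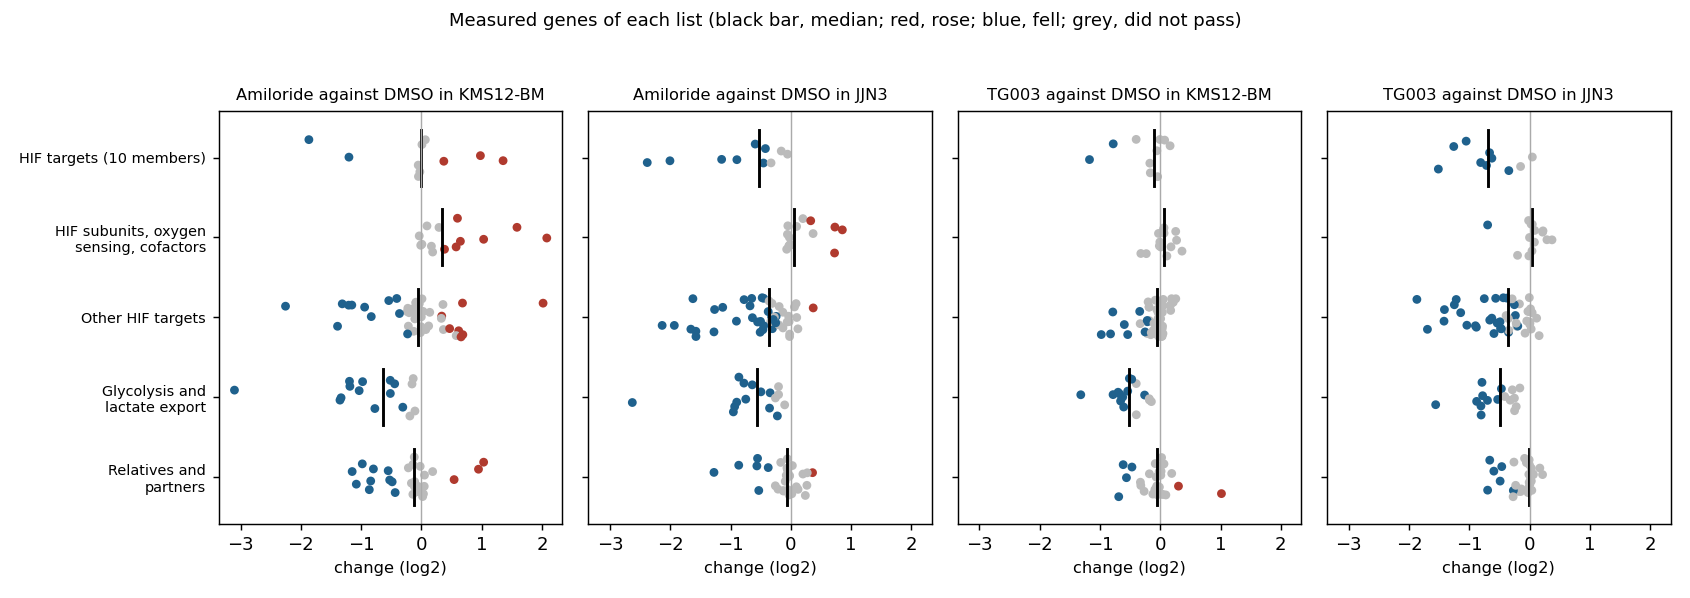
Log2 change against DMSO of each measured gene (points) in the HIF target genes and the related gene lists, for the 4 drug comparisons on a shared axis, with black bars at list medians and colour for genes that rose or fell. In JJN3 the 10 HIF target genes have medians of −0.52 with amiloride and −0.69 with TG003, while those of the glycolytic genes lie between −0.65 and −0.50 in all 4 comparisons.

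For each gene, the genes whose 4 drug changes lay nearest to its own were found by root mean square difference among up to 8536 genes above the reference. The changes share arrays, so this is a description. The nearest to PDK1 were CDHR1 (0.35 log2) and INSIG1 (0.39), and those to P4HA1 were IDH2 (0.25) and PLOD1 (0.31). NDRG1, whose KMS12-BM values were below the reference, lay nearest to EMP2 (0.15) and CTHRC1 (0.15). KDM3A lay nearest to CDC20P1 (0.22) and PIM1 (0.24), and VEGFA to FAM72D (0.19) and TMEFF1 (0.21). ANKRD37, whose means were below the reference in every group, lay nearest to CYTIP (0.06) and INSIG2 (0.07). The genes nearest to P4HA2, BNIP3, EGLN3 and ADM, whose own changes were small or below the reference, lay within 0.06 log2 of them.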

How the data were processed

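RNA of 2 cell lines was measured on 18 arrays. The values deposited by the authors are on a log2 scale and come from RMA, of unnamed version, per the submitters' processing notes. No source used here names a genome build. The labels call the molecule total RNA and the series text poly A+ RNA. Of 70523 probe sets, 25324 were in the annotation: 23781 had 1 symbol, 1543 several, and 45199 were not listed. The brightest probe set stood for each of 479 genes with more than 1, leaving 22465 genes.

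Groups follow the titles. All genes were fitted with limma 3.58.1 in R 4.3.3, using 6 group means, 12 residual degrees of freedom and 9 two-sided contrasts. P-values were adjusted by the Benjamini-Hochberg method across the 22465 genes, and calls were made under 0.05. "Rose" and "fell" mean an adjusted p under that threshold. The fit was tested on simulated data. Background is the 95th percentile of 92 control probe sets. Tables and figures used Python 3.11.15, pandas 2.3.3, numpy 2.4.6 and matplotlib 3.10.9. The fold of NDRG1 between lines is a bound, set against the background reference because the files give no detection flags.

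The 10 genes, the lists and the tests were chosen with earlier results of these data known. The 10 genes are named throughout. From each list, up to 3 genes with the largest change past the threshold in a drug comparison and a group mean above background may be named, with HIF1A, EPAS1, ARNT, EGLN1 and VHL, a few relatives of members, the 2 nearest genes of each member and cell type markers. A few genes of the lists were not analysed here, nor were the proteins of P4HA1 and P4HA2. The replicate numbers come from the titles. Deviations from the group means correlated above 0.1 for each of the 3 shared numbers in 3 of 15 group pairs, which were TG003 with DMSO of either line and the DMSO groups of the lines. Alternatives were a replicate block, further quantile normalization, median centring, only the groups compared, the mean of all probe sets of a gene, a trended and robust prior, only genes above background and leaving out each array.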

Additional observations from a re-analysis of the deposited data

Results flagged for a closer look

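For 9 values, the change with a drug differed between the lines in a test of that difference (limma, adjusted over 22465 genes). For amiloride there were 6, given as the change in JJN3 minus that in KMS12-BM. The difference was −1.94 log2 for KDM3A and −1.87 for VEGFA, whose 3 amiloride arrays lay above every DMSO array in KMS12-BM and below every one in JJN3. It was −1.21 for NDRG1, −1.18 for PDK1, −0.82 for ANKRD37 and −0.43 for EGLN3. The amiloride dose and the share of serum also differed between the lines, so dose, medium and line cannot be told apart. For TG003, at the same dose but with the same difference in serum, there were 3: −1.22 for NDRG1, −0.65 for VEGFA and −0.42 for EGLN3. NDRG1 was below the background reference in KMS12-BM with each treatment, and EGLN3 and the means of ANKRD37 were below it in both lines.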

How the results depend on the processing

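Of 1620 member values with 1 array left out, 1590 kept their side of the threshold, 17 lost the call, 13 gained it and none reversed. A change of sign was counted as a reversal only where the value was called in either fit. Of 585 values under other alternatives, 572 kept their side, 4 lost the call, 9 gained it and none reversed. Of these alternatives, only further quantile normalization and median centring can alter a member's log2 change. The others, and leaving out an array outside the groups compared, could reverse nothing. With the replicate block, the members differing in TG003 response numbered 5 in place of 3, all lower in JJN3, with P4HA1 (adjusted p = 0.017) and ANKRD37 (adjusted p = 0.044) added, and ADM passed for amiloride in JJN3 (adjusted p = 0.035). For amiloride against TG003 in JJN3, 1 member (ADM) rose in place of none under the replicate block, further quantile normalization, median centring and only the groups compared. The block changed no other member call. Same-numbered arrays correlated above 0.1 throughout in 3 of 15 group pairs, and 12 of 18 arrays were closest to their own number, as a hint from the data. Tested on genes above background only, 5 members remained. These kept their calls of a fall with TG003 in JJN3 and of a higher level in JJN3 than in KMS12-BM in DMSO. The counts were 5 in each since the other 5 members were left out. NDRG1 passed that filter only through its JJN3 groups, so its line difference there was built into the filter. In that setting P4HA1 also passed for the TG003 response (adjusted p = 0.034). With 1 array left out, the members differing in TG003 response numbered 2 to 6, all lower in JJN3, and all genes 677 to 1282. For amiloride against TG003 in JJN3, 0 to 1 members rose. ADM passed in the amiloride response without the first JJN3 DMSO array (adjusted p = 0.034). The cause of these changes was not tested. Signal over background limits P4HA2, BNIP3, EGLN3, ANKRD37 and ADM in all groups and NDRG1 in KMS12-BM.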

Other observations

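Relatives and partners of the 10 genes formed a list of 32 genes, of which 31 were measured. It shares EGLN1 and EGLN2 with the list of the HIF machinery, and BNIP3L and FLT1 with that of other HIF targets. These genes are thus counted in both lists. With amiloride 3 rose and 10 fell in KMS12-BM, and 1 rose and 6 fell in JJN3. With TG003 2 rose and 4 fell in KMS12-BM, and none rose (2 at an unadjusted p under 0.05 in limma) and 6 fell in JJN3. Over all genes, 17.0% rose and 13.6% fell with amiloride in KMS12-BM, and 8.65% and 6.12% in JJN3. With TG003 8.3% rose and 6.52% fell in KMS12-BM, and 3.74% and 5.64% in JJN3. The share of relatives that rose was near or below these. The small counts of rises moved with the setting. With amiloride in JJN3 it was 3 under the replicate block or without the third JJN3 amiloride array, and 2 without the first or the third KMS12-BM amiloride array or the second KMS12-BM TG003 array. With TG003 it was 1 in KMS12-BM with only the groups compared, or without the third KMS12-BM DMSO array or the second KMS12-BM TG003 array. In JJN3 it was 1 under the replicate block, or without the third amiloride array or the second TG003 array. NDRG3, a family member of NDRG1, fell with amiloride in KMS12-BM (−1.15 ± 0.08 log2) and rose there with TG003 (1.02 ± 0.08). In JJN3 it fell with amiloride (−0.56 ± 0.08), and its TG003 change was 0.22 ± 0.08 (adjusted p = 0.14).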
